A study of Mus musculus with 6 samples.

Results

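The 9 genes described here encode 4 inflammatory or regulatory cytokine chains and 5 chains of the receptors that read them: Tnf and its receptors Tnfrsf1a and Tnfrsf1b, Il6 and Il6ra, Il12b, and Il10 with Il10ra and Il10rb. They were taken as the probe sets of an Affymetrix whole-transcript array that the platform annotation links to exactly 1 of these symbols, which gave 9 probe sets of 35557 in all, 1 for each gene, and 9 of the 19938 genes that have a probe set of their own. RNA came from primary cultured microglia of 2 groups with 3 arrays each. The fosB-null group came from mice homozygous for fosBG, a null allele backcrossed to C57BL/6J (N20, or 20 generations), and the wild-type group from C57BL/6J mice. In both groups microglia were raised from the cerebral cortex of pups aged 2 days, collected after 10 days of culture and replated for 24 h, and the labels name no stimulus. The null allele is in the germline and so in all cells of the animal, and the cultures are of newborn, not adult, microglia.

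Tumour necrosis factor, interleukin 6 and the p40 chain encoded by Il12b are released by microglia and other macrophages when pattern recognition receptors are engaged, and interleukin 10 restrains that output. TNF is shed from the cell surface and signals through TNFR1, which carries a death domain and can start either NF-kappaB signalling or cell death, and TNFR2, which lacks that domain. Interleukins 6 and 10 signal through receptor chains that activate Janus kinases and STAT3. Fosb encodes FosB, which pairs with JUN proteins to form the AP-1 transcription factor.

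Because the comparison is of cells with and without an AP-1 subunit, the bases before the start of the genes were read for the AP-1 letters TGANTCA. The RefSeq promoter table (GRCm38.p6) held 6 of the 9 genes, and not Il10, Il10ra or Il10rb. In the 250 bases before the start, on both strands, TGANTCA was found in Il6 alone of the 6, against 6.75% of 32851 RefSeq windows of the same length. An NF-kappaB consensus was also found in Il6 (3.9% of windows), TATAAA in Tnf (12.4%), and GGAAGT, the core of ETS factor sites, in Tnf and, at 2 places, in Il6ra (19.7%). The cyclic AMP response element TGACGTCA, in 1.55% of windows, was in none of the 6. Shown here are Il6, the one with an AP-1 match, Tnf, and Tnfrsf1b, the 1 gene lower in fosB-null arrays in every same-numbered pair, with matches in capitals. Il6 is read from chr5:30012864-30013113 on the plus strand, Tnf from chr17:35202008-35202257 and Tnfrsf1b from chr4:145246871-145247120, both on the minus strand. No match in Tnfrsf1b says only that these letters are not in this window.
Il6: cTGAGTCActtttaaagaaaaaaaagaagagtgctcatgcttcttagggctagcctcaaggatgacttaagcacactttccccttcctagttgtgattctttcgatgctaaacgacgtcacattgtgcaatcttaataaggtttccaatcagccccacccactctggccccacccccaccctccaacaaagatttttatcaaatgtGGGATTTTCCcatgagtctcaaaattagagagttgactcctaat
Tnf: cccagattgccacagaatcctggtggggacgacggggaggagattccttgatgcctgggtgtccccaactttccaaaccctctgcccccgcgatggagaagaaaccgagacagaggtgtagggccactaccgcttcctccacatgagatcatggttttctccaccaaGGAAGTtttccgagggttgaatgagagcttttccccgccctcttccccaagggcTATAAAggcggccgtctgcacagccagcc
Tnfrsf1b: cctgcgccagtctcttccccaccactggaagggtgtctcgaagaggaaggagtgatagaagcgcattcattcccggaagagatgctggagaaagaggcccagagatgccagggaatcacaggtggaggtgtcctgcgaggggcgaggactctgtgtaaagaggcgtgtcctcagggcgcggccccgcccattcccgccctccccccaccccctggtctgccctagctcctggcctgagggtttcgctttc
In Il6 the AP-1 match, at bases 249 to 243 before the start, stands at the far end of the stretch and the NF-kappaB match at bases 44 to 35. The TATAAA of Tnf lies at bases 29 to 24.

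Array medians ran from 7.76 to 7.92 on the log2 scale. Microglia markers were measured for 9 of the 10 genes listed, at mean log2 signals of 8.82 to 13.6, and 7 of the 9 had a higher mean in fosB-null arrays without passing the test. Averaged over their list, border macrophage markers lay at 9.93 to 10.2 in fosB-null arrays and 9.79 to 10 in wild-type arrays. Mrc1, Stab1, Siglec1 and Pf4 had the higher means in fosB-null (by 0.27, 0.18, 0.15 and 0.13), but only Siglec1 was higher in all 3 pairs. Lyve1 and Cd163 were dim, with means above those of 26.4% and 20.1% of tested probe sets, and were identical within each pair. The part of border macrophages in the cytokine values was not tested. Astrocyte markers averaged 6.99 to 7.16 over their list in both groups, with single markers at 6.14 to 8.27. All 6 were identical within each pair, so these equal averages come from tied values. Oligodendrocyte lineage markers averaged 8.17 to 8.35 in fosB-null arrays and 8.25 to 8.49 in wild-type arrays, with 4 of 5 lower in fosB-null and a median difference of -0.15. Among them Mbp, a myelin protein gene named here after its values were seen, differed by -0.21, more than any of the 9 cytokine and receptor genes. It was lower in all 3 pairs with groups that did not overlap (limma adjusted p = 1), as for 1.12% of all tested probe sets. The part of oligodendrocyte lineage cells was not tested either. Lists of blood leukocyte, neuron, fibroblast and mural, and endothelial markers averaged 6.64 to 8.29 in fosB-null arrays and 6.59 to 8.26 in wild-type arrays, and 0 members of any marker list passed the test. In such bulk RNA, fewer cells of a type and less RNA per cell cannot be told apart. The Fosb probe set itself differed by -0.12, and as its place relative to the altered part of the gene is not known here, it does not check the labels. Across 23410 tested probe sets limma called 1 gene, C5ar2, at an adjusted p of 0.00162. C5ar2 lies on chromosome 7 with Fosb, 71 measured genes from it, and none of the 9 genes does, by the RefSeq gene table. For C5ar2 an effect of its place near the altered gene and one of FosB loss cannot be told apart here.

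None of the 9 genes passed the test in either direction. By limma's moderated test with Benjamini-Hochberg adjustment, 0 of 9 reached an adjusted p under 0.05, beside 0.00427% of all tested probe sets, and the adjusted p was 1 for each. At an unadjusted p under 0.05 there were also 0 of 9, beside 0.722%. The fosB-null and wild-type values overlapped for all 9 genes, where 1.12% of all tested probe sets had groups that did not overlap. A tied pair, with the same value in both groups, makes the groups overlap whatever the other values are. Only 2 of the 9 genes, and 3520 or 15.0% of all tested probe sets, had no tied pair. The 262 probe sets without overlap all come from these 3520. The mean was lower in fosB-null for 7 genes, higher for Il6ra and equal for Il10rb, with a median difference of -0.03 beside 0.00 over all tested probe sets, of which 41.3% were lower, 30.9% higher and 27.8% at a difference of 0. Of the 9 genes Tnfrsf1b alone was lower in all 3 same-numbered pairs, beside 5.57% of all tested probe sets, and 0 were higher in all 3, beside 2.2%. These 1305 lower and 515 higher probe sets also come only from the 3520 without a tied pair, so the pattern is common among those. Tnfrsf1b and Il10ra were the 2 of the 9 genes that could show it. Il6ra turned to the lower side with the arrays centred on their medians.

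A feature of the deposited values bears on every difference given here. Arrays with the same replicate number in the 2 groups carried identical values in 54.7% to 62.3% of tested probe sets, and 2 arrays with different numbers had at most 3 such probe sets in common. Of the 27 pair values of the 9 genes, 11 were tied, or 40.7%, beside 57.6% over all tested probe sets. A tie is not a measurement of equality, and no source used here records the step that gives it.

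**Figure D1:**
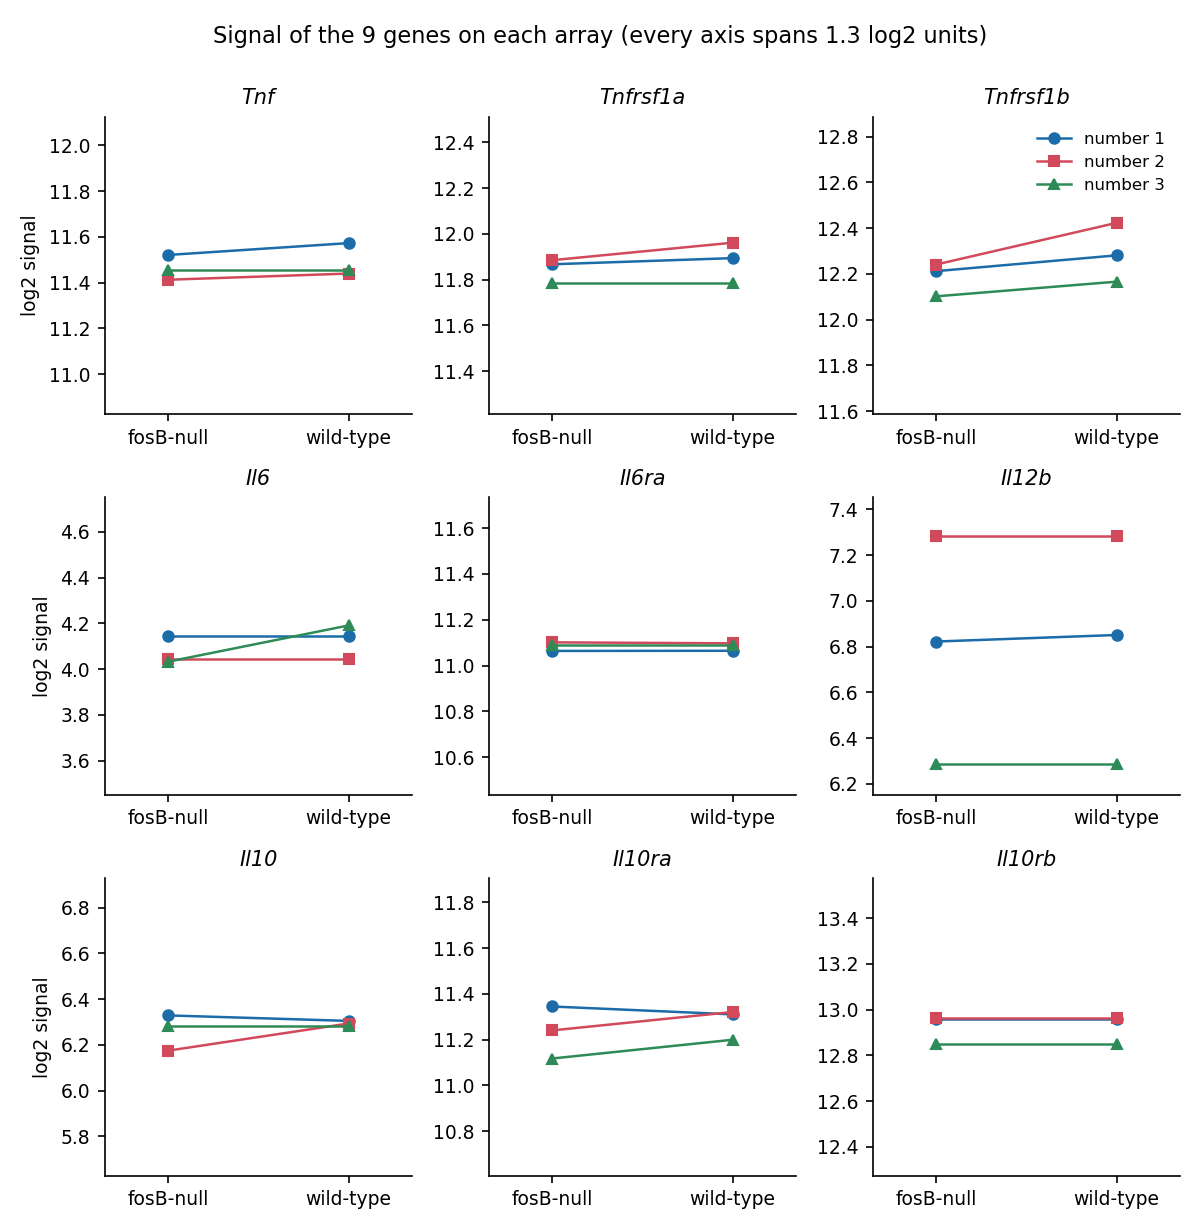
Log2 signal (y axis) of the 9 genes on the fosB-null arrays (left) and the wild-type arrays (right), with a line joining the arrays of the same replicate number. Lines are close to flat, and for Il12b the 3 numbers lie far apart while the 2 groups coincide.

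Tnf encodes the founding member of the TNF ligand family. Its log2 signal was 11.52, 11.41 and 11.45 in fosB-null replicates 1, 2 and 3, against 11.57, 11.44 and 11.45 in the wild-type ones. The third pair was tied, and the groups overlapped. The means were 11.462 ± 0.055 in fosB-null and 11.489 ± 0.073 in wild-type (SD, n = 3 each), so fosB-null minus wild-type was -0.026 (standard error 0.073). In linear signal this is -1.81%, with a 95% interval of -12.9% to 10.7% (limma unadjusted p = 0.729). Its mean exceeded that of 90.3% of tested probe sets, so the transcript was well inside the measured range of the array without any stimulus named in the labels. Probe sets differ in affinity, so such a share is a position on the array and not an abundance relative to other genes.

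Tnfrsf1a encodes TNFR1, the receptor with the death domain. It had log2 signals of 11.87, 11.88 and 11.78 in fosB-null replicates 1, 2 and 3, against 11.89, 11.96 and 11.78 in wild-type. The fosB-null value was lower in pairs 1 and 2 and the same in pair 3. The means of 11.845 ± 0.054 in fosB-null and 11.880 ± 0.090 in wild-type (SD, n = 3 each) differed by -0.035 (standard error 0.076, limma unadjusted p = 0.664), or -2.37% in linear signal with a 95% interval of -13.9% to 10.7%.

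Tnfrsf1b encodes TNFR2, the TNF receptor that is largely a receptor of immune and endothelial cells. Its log2 signals were 12.21, 12.24 and 12.10 in fosB-null replicates 1, 2 and 3, against 12.28, 12.42 and 12.17 in wild-type. It was the 1 gene of the 9 with a lower fosB-null value in all 3 pairs, and the groups still overlapped. The pairs differed by -0.07, -0.18 and -0.06. The means were 12.185 ± 0.073 in fosB-null and 12.290 ± 0.129 in wild-type (SD, n = 3 each), and fosB-null minus wild-type was -0.105 (standard error 0.089), or -7.03% with a 95% interval of -19.7% to 7.66% (limma unadjusted p = 0.277). This was the largest difference among the 9, and 92.4% of tested probe sets differed by less. When limma took the replicate number as a random block, the unadjusted p was 0.00777, a level under 0.05 that 9.65% of tested probe sets reached, and the adjusted p was 0.292. That fit used 1 correlation within numbers, 0.956, for all probe sets, and its standard error for Tnfrsf1b was 0.027. The many tied pairs enter that correlation, so errors from this fit may be too small.

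In the fit without a block, the shift of the TNF ligand and of both receptors was within the spread between arrays. That spread includes what same-numbered arrays share. With the random block in limma, the interval of Tnfrsf1b was -0.171 to -0.039, below 0, with an adjusted p of 0.292. The intervals of Tnf (-0.0651 to 0.0125) and Tnfrsf1a (-0.0806 to 0.0115) crossed 0. Ties may make these intervals too narrow. The other replicate block in limma gave Tnfrsf1b an unadjusted p of 0.0802. Partner genes count as measured where a probe set carries their symbol alone. Among 16 measured partners in TNF signalling, of 17 listed, 0 passed the test, 7 had lower means in fosB-null, 6 higher and 3 a difference of 0, with a median of 0.00. Traf2, an adaptor that binds TNFR2 directly, differed by -0.13, Rnf31, a subunit of the linear ubiquitin ligase, by -0.08, and Birc3, the inhibitor of apoptosis cIAP2, by -0.10, each lower in all 3 pairs. The values of Traf2 were 9.46, 9.56 and 9.33 in fosB-null replicates 1, 2 and 3, against 9.59, 9.57 and 9.58 in wild-type. Its groups did not overlap, as for 1.12% of all tested probe sets. Most of the difference came from pairs 1 and 3 (limma unadjusted p = 0.144, adjusted p = 1). Map3k7, the kinase TAK1, differed by 0.05. Adam17, the sheddase that releases TNF, also differed by 0.05 and was higher in fosB-null in all 3 pairs (limma unadjusted p = 0.544); it falls outside the rule for named genes and was chosen after its values were seen.

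**Figure D2:**
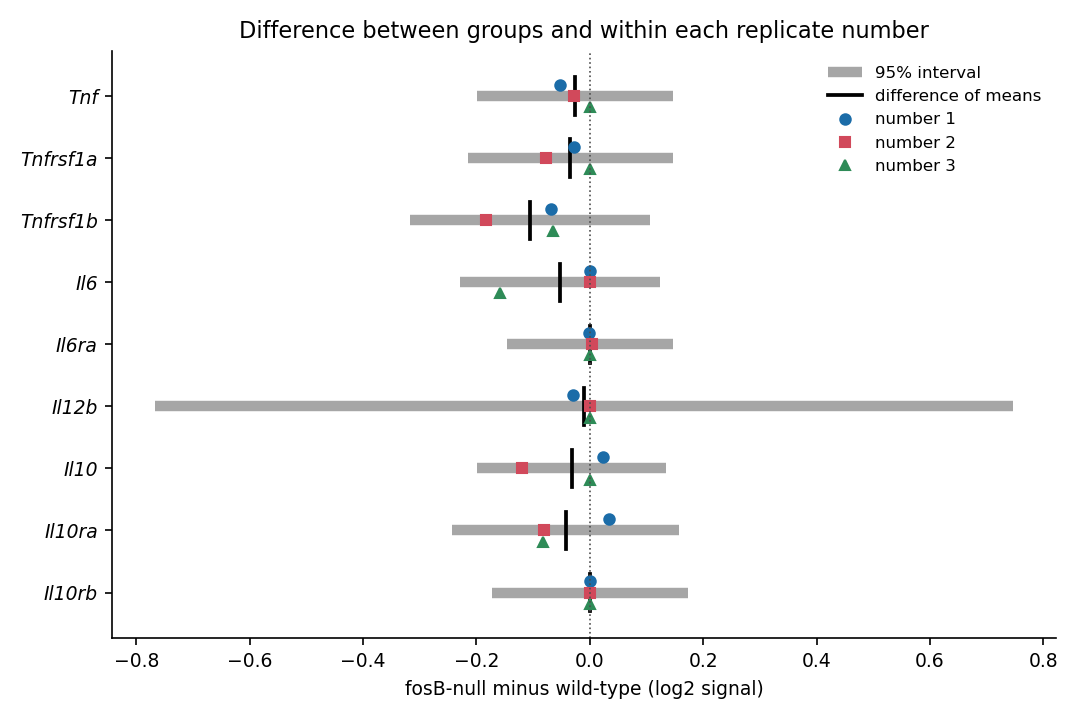
Difference in log2 signal, fosB-null minus wild-type (x axis), for each of the 9 genes (rows), with the 95% interval of the limma fit as a grey bar, the difference of means as a black line and the difference within each replicate number as coloured points. All 9 bars cross 0, the bar of Il12b is the widest, and all 3 points of Tnfrsf1b lie below 0.

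Il6 encodes the cytokine interleukin 6, and its signal was near the low end of the arrays. Its log2 signals were 4.14, 4.04 and 4.03 in fosB-null replicates 1, 2 and 3, against 4.14, 4.04 and 4.19 in wild-type. Pairs 1 and 2 were tied, so the whole difference came from pair 3, at -0.16. The means of 4.074 ± 0.062 in fosB-null and 4.127 ± 0.075 in wild-type (SD, n = 3 each) differed by -0.053 (standard error 0.074, limma unadjusted p = 0.499). Only 1.31% of tested probe sets had a lower mean, and in replicate 1 the exact value of Il6 was shared by 27 probe sets of the fosB-null array and 30 of the wild-type array. For Il6, the gene with the AP-1 letters in the stretch printed above, no difference was detectable at this signal.

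Il6ra encodes the ligand-binding chain of the interleukin 6 receptor. It varied least of the 9, with 11.06, 11.10 and 11.09 in fosB-null replicates 1, 2 and 3, against 11.06, 11.10 and 11.09 in wild-type. All 6 arrays lay within 0.04 log2 units. The means were 11.085 ± 0.019 in fosB-null and 11.084 ± 0.017 in wild-type (SD, n = 3 each), and differed by 0.0011, or 0.0786% with a 95% interval of -9.58% to 10.8% (limma unadjusted p = 0.986). The interval is wider than the spread of this gene because limma moderates its variance towards that of other probe sets.

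Of 15 listed partners of the interleukin 6 family, 12 were measured, and 0 passed the test, with 8 lower, 1 higher and 3 at a difference of 0 (median -0.01). Osm, which encodes oncostatin M, a cytokine that shares the gp130 chain with interleukin 6, stood farthest out. Its log2 signals were 9.69, 9.38 and 9.74 in fosB-null replicates 1, 2 and 3, against 10.03, 9.85 and 9.84 in wild-type. Every fosB-null array was below every wild-type array, and the pairs differed by -0.35, -0.47 and -0.10. Groups did not overlap for 1.12% of all tested probe sets. The group means differed by -0.30 (standard error 0.11, limma unadjusted p = 0.034, adjusted p = 1). Lifr, a receptor chain for leukaemia inhibitory factor, differed by 0.11 and was higher in all 3 pairs. Stat3, the transcription factor downstream of gp130, differed by -0.10, with -0.06, -0.19 and -0.06 in the pairs. Il6st, gp130 itself, differed by -0.08.

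Il12b encodes p40, the chain shared by interleukins 12 and 23. Its log2 signals were 6.82, 7.28 and 6.28 in fosB-null replicates 1, 2 and 3, against 6.85, 7.28 and 6.28 in wild-type. Pairs 2 and 3 were tied and pair 1 differed by -0.03. The signal was low, with a mean above that of only 24.0% of tested probe sets. The replicate numbers lay far apart in both groups, as number 2 was 1.00 above number 3 on the log2 scale, a range that exceeds that of 99.4% of tested probe sets. The groups differed by -0.0096 (standard error 0.32), from means of 6.80 ± 0.50 in fosB-null and 6.81 ± 0.50 in wild-type (SD, n = 3 each, limma unadjusted p = 0.977). Its 95% interval, -41.2% to 67.8%, was the widest of the 9 in this fit, which takes no account of the pairing. In the limma fit with a random block for the number the interval was -0.13 to 0.12 on the log2 scale, beside -0.17 to -0.04 for Tnfrsf1b. Its width depends on the spread between numbers and on the 1 correlation taken for all probe sets, which tied pairs enter. The other replicate block in limma gave Il12b a standard error of 0.0088, which rests on 2 tied pairs. Leaving out wild-type replicate 3 gave -0.27 and leaving out fosB-null replicate 3 gave 0.25, since the numbers then no longer balance.

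Which other genes had the pattern of Il12b was asked by the root mean square gap between mean-centred log2 profiles over the 6 arrays. It was the only one of the 9 with a range of at least 0.5 over the arrays, the minimum set for this search. The 3 most alike were Baiap2l1, which encodes a membrane-bending adaptor, Flvcr1, a transporter gene, and Arl1, a small GTPase of the Golgi, with gaps of 0.032, 0.034 and 0.034. Baiap2l1 had log2 signals of 12.001, 12.503 and 11.523 in fosB-null replicates 1, 2 and 3, against 12.001, 12.503 and 11.519 in wild-type. As for Il12b, number 2 was highest and number 3 lowest in both groups.

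**Figure D3:**
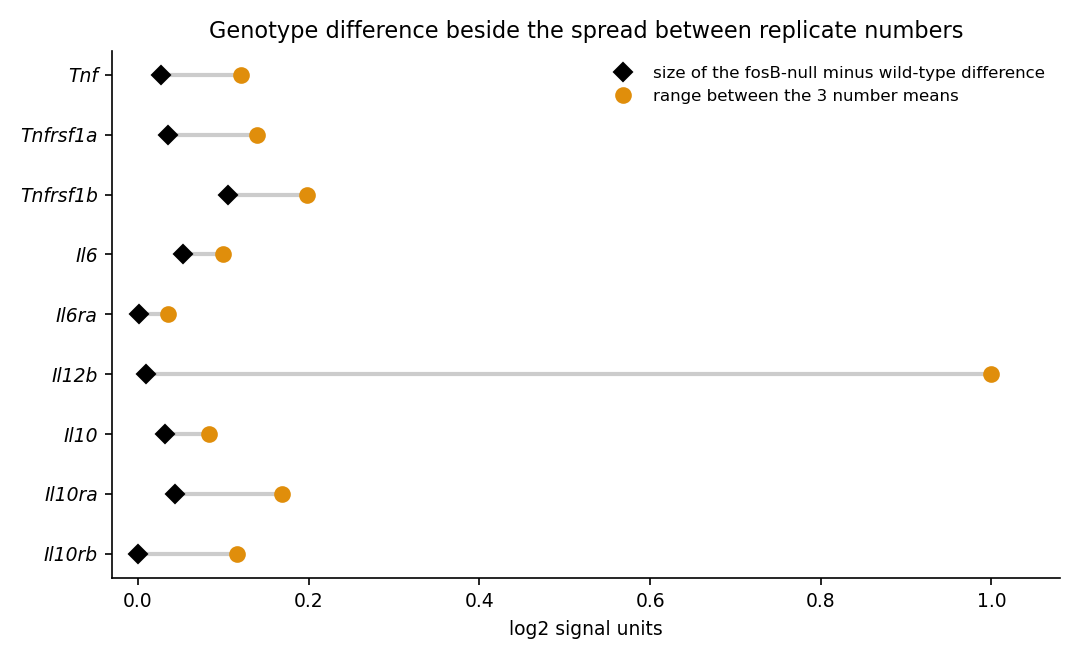
Size of the fosB-null minus wild-type difference (black diamonds) and range between the means of the 3 replicate numbers (orange circles), in log2 units (x axis), for each of the 9 genes (rows). The circle lies to the right of the diamond for every gene, by most for Il12b. Tied pairs and number means over fewer arrays favour this order.

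For each of the 9 genes the range between the means of the 3 replicate numbers was larger than the difference between the groups. This order cannot rank the effect of number against that of group. Tied pairs shrink the group difference, and means over fewer arrays widen the range between numbers. That range was 0.12 for Tnf, 0.14 for Tnfrsf1a, 0.20 for Tnfrsf1b, 0.10 for Il6, 0.04 for Il6ra, 0.08 for Il10, 0.17 for Il10ra and 0.12 for Il10rb, and its median over all tested probe sets was 0.23. Apart from Il12b, the genes therefore varied less between numbers than a typical probe set. Number 3 was the lowest for both TNF receptors and both IL-10 receptor chains, and number 1 the highest for Tnf, Il6, Il10 and Il10ra.

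Il12a, the p35 partner chain of p40, differed by 0.00, and all 10 listed partners of the interleukin 12 family were measured. None passed the test, 1 was lower, 6 were higher and 3 had a difference of 0 (median 0.00). Il12a was chosen after its values were seen, as the partner of p40. Ebi3, a chain of interleukins 27 and 35, differed by 0.09, from 0.12, 0.24 and -0.09 in the pairs. Il12rb2, a receptor chain for interleukin 12, differed by 0.011, from 0.034, 0.454 and -0.455 in the pairs, so pairs 2 and 3 ran in opposite directions. Il12rb1 and the kinase gene Tyk2 differed by -0.03 and 0.01.

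Il10 encodes interleukin 10, which restrains macrophage activation. Its log2 signals were 6.33, 6.17 and 6.28 in fosB-null replicates 1, 2 and 3, against 6.30, 6.29 and 6.28 in wild-type. The fosB-null value was higher in pair 1, lower in pair 2 and tied in pair 3. The means were 6.263 ± 0.079 in fosB-null and 6.294 ± 0.010 in wild-type (SD, n = 3 each), and the difference was -0.032 (standard error 0.070, limma unadjusted p = 0.666), or -2.16% with a 95% interval of -12.8% to 9.81%. Only 15.1% of tested probe sets had a lower mean. In replicate 3 the values of Il10 and Il12b were identical to each other, and the same value was held by 20 probe sets of the fosB-null array and 25 of the wild-type array.

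Il10ra encodes the ligand-binding chain of the interleukin 10 receptor. It had 11.34, 11.24 and 11.12 in fosB-null replicates 1, 2 and 3, against 11.31, 11.32 and 11.20 in wild-type. None of its pairs was tied, with differences of 0.03, -0.08 and -0.08, so the direction was not shared. The means of 11.234 ± 0.114 in fosB-null and 11.277 ± 0.067 in wild-type (SD, n = 3 each) differed by -0.043 (standard error 0.084, limma unadjusted p = 0.628), or -2.92% with a 95% interval of -15.5% to 11.5%.

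Il10rb encodes the second chain, which interleukin 10 shares with interleukin 22 and the lambda interferons. Its log2 signals were 12.96, 12.96 and 12.85 in fosB-null replicates 1, 2 and 3 and had exactly the same values in wild-type. All 3 pairs were tied, as in 27.8% of tested probe sets, so the difference was 0, and its 95% interval of -11.3% to 12.8% reflects the spread between numbers and the moderation of limma. Outside Il12b, the 95% intervals of the 9 genes lay between -19.7% (Tnfrsf1b) and 12.8% (Il10rb).

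Among relatives and known targets of interleukin 10, 14 of 15 listed genes were measured, and 0 passed the test, with 10 lower, 2 higher and 2 at a difference of 0 (median -0.02). Nfil3, a transcription factor gene that interleukin 10 induces in macrophages, had 8.84, 8.68 and 8.93 in fosB-null replicates 1, 2 and 3, against 9.18, 9.17 and 9.10 in wild-type. Its groups did not overlap, as for 1.12% of all tested probe sets, and the pairs differed by -0.34, -0.49 and -0.17. Nfil3 was named for the lowest unadjusted p of its list by limma, so the interval that follows is that of a selected extreme. The group means differed by -0.34 (standard error 0.08), or -20.8% with a 95% interval of -31% to -8.97% (limma unadjusted p = 0.00553, adjusted p = 1). In the limma fit with a random block, whose errors may be too small because of ties, the adjusted p was 0.115. Bcl3, an atypical inhibitor of NF-kappaB, differed by -0.16 and Sbno2, a transcriptional co-regulator, by -0.09, both lower in all 3 pairs. Bcl3 lies 26 measured genes from Fosb on chromosome 7, so an effect of its place near the altered gene and one of FosB loss cannot be told apart here. Hmox1, the haem oxygenase gene, differed by -0.09 and was lower in all 3 pairs.

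**Figure D4:**
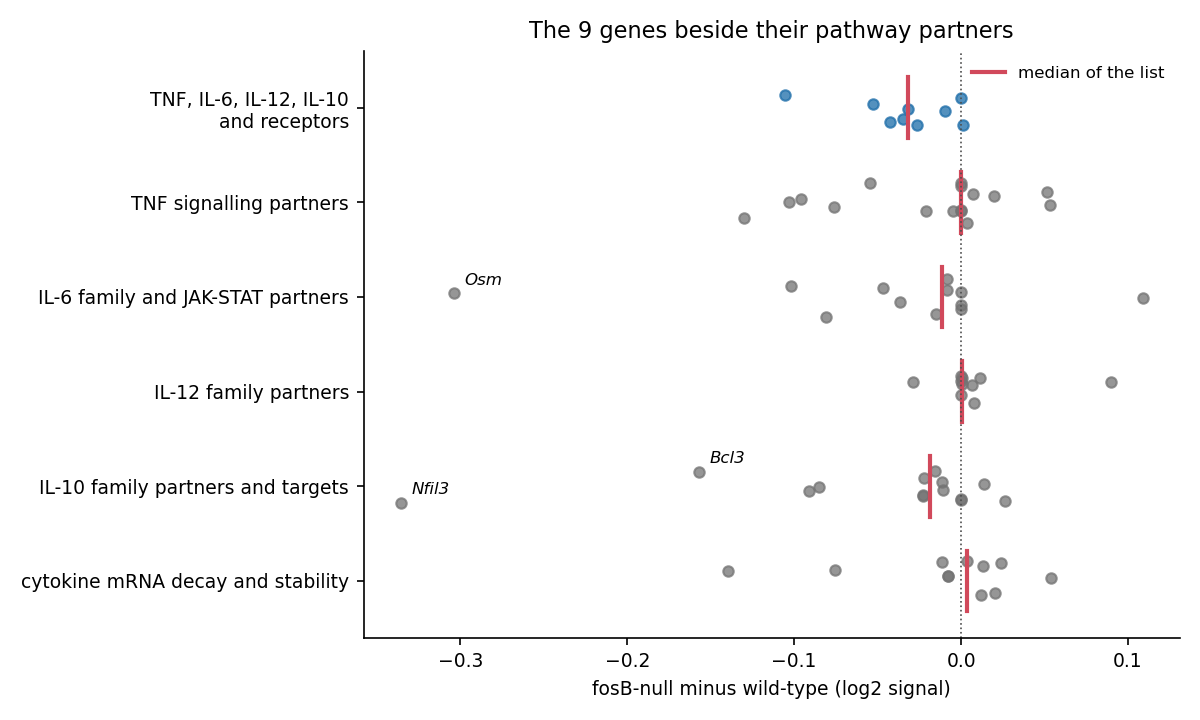
Difference in log2 signal, fosB-null minus wild-type (x axis), for the 9 genes (top row, blue) and for the measured genes of 5 lists of pathway partners (grey, 1 point per gene, shifted up or down at random for legibility), with the median of each list as a red line. Osm, Nfil3 and Bcl3 lie farthest to the left, and the medians lie between -0.03 and 0.00.

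Genes that control the decay of cytokine mRNAs were all measured, and 0 of 11 passed the test, with 5 lower and 6 higher (median 0.00). Zfp36, whose product tristetraprolin destabilises Tnf mRNA, differed by -0.14, nearly all of it from pair 2 at -0.40. Zfp36 too is on chromosome 7, at 163 measured genes from Fosb. Zc3h12a, the endonuclease regnase-1 that cuts Il6 and Il12b mRNAs, differed by -0.08, Hnrnpd by 0.05 and Khsrp by 0.02. Over the 5 lists together, 63 of 68 genes were measured. By limma, 2 of these 63, Osm and Nfil3, reached an unadjusted p under 0.05, beside 0.722% of all tested probe sets. Of the 63, 9 were lower in all 3 pairs and 3 higher, beside 1305 (5.57%) and 515 (2.2%) of the 23410 tested probe sets. Only genes without a tied pair can show this, and 15.0% of tested probe sets had none. The share of such genes among the 63 is not given, so these counts are not read as an excess. In the fit with a random block for the number, 0 of the 63 passed the adjusted threshold, where 0.201% of all tested probe sets did.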

How the data were processed

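RNA of 6 cultures (3 fosB-null, 3 wild-type) was profiled on 1 array each, from 100 ng of total RNA per the labels' protocols. The deposited values are log2 signals per probe set, made by the authors in Affymetrix Expression Console (submitters' processing notes). Its version, summary method and normalization are not stated in any source used here. The scale was read from the values, 1.73 to 14.6.

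Symbols came from the platform table, updated through a RefSeq gene table (GRCm38.p6), which held 21698 of 21789 single-gene probe sets. The 23410 probe sets with a symbol were tested in R 4.3.3 by the two-sided moderated test of limma 3.58.1 (functions lmFit and eBayes, no block), adjusted by Benjamini-Hochberg at 0.05. The code of the limma fits was tested on simulated data without tied values, so that test does not cover the effect of ties. The labels call the arrays biological replicates and do not say whether the cultures came from separate litters, so p-values measure the spread between these arrays, whose number limits the precision.

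Arrays 1, 2 and 3 of one group deviated from their mean together with the same number of the other (Pearson's r across probe sets 0.911, 0.821 and 0.82, negative between different numbers). Deviations from a group's own mean cancel out, so the negative r largely follows from the matched r and is no separate evidence. The identical values of same-numbered arrays also enter the matched r. The replicate numbers were taken as pairs because of the matched r, whose cause is not known here. No label states this pairing. Named genes are the members, up to 4 genes per partner list with the lowest p, and genes most alike in pattern. In lists, the brightest probe set stood for a gene. Members and lists were chosen with earlier results of these data known. Alternatives were quantile normalization, median centring, leaving out the dimmest 40%, testing all probe sets, an intensity trend, array weights, 2 kinds of replicate block and leaving out each array.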

Additional observations from a re-analysis of the deposited data

How the results depend on the processing

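No setting called any of the 9 genes, and the lowest adjusted p over the 14 alternatives was 0.292, for Tnfrsf1b with the random replicate block. Tnfrsf1b and Il6 stayed below 0 in every alternative that held them, and Il10rb had no direction to turn. The filter on dim probe sets left out Il6, Il12b and Il10. Il6ra turned to -0.023 with median centring and to -0.0005 with array weights. With single arrays left out, the difference ran from -0.056 to 0.016 for Tnf, -0.083 to 0.0063 for Tnfrsf1a, -0.0087 to 0.012 for Il6ra, -0.27 to 0.25 for Il12b, -0.065 to 0.012 for Il10 and -0.098 to 0.016 for Il10ra, each reaching both signs, and from -0.167 to -0.039 for Tnfrsf1b. Removing 1 array of a pair unbalances the numbers. The replicate block changed no call among the 9 genes. Over all probe sets it called 0 in place of 1, with 541 at an unadjusted p under 0.05, and the random replicate block called 47. Tied pairs may make the errors of both block fits too small. Leaving out single arrays gave 1 to 2 calls, with 2 without wild-type replicate 3. Among the 63 measured pathway partners 2 genes passed at the unadjusted p of limma in place of 0, beside 0.722% of all tested probe sets. Low signal limits Il6. Il10 and Il12b were dim too, with means above those of 15.1% and 24.0% of tested probe sets. Without a block the spread between numbers also limits Il12b.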

Other observations

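Il10rb was tied in all 3 pairs although it is among the brightest probe sets, with a mean above that of 97.9% of those tested. Of the 2341 tested probe sets in the top 10% by mean signal, 111, or 4.74%, were tied in all 3 pairs, beside 30.4% of the 21069 others. At the low end, exact values recurred within an array. The value of Il10 in replicate 2 was held by 53 probe sets of the wild-type array and by 1 of the fosB-null array, and that of Il12b in replicate 1 by 26 probe sets of the wild-type array and by 1 of the fosB-null array.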
